A study of Mus musculus with 20 samples.

Results

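A set of 10 genes of nucleolar ribosome biogenesis were followed through bortezomib treatment in mouse myeloma cells. The list holds Ncl, Npm1, Fbl, Nop56, Nop58, Pes1, Bop1, Wdr12, Nop2 and Srm, and its probes were all those whose platform gene symbol is in the list. The array carried 17 such probes among 45281, for 9 of the 10 genes, and Fbl, the rRNA 2′-O-methyltransferase fibrillarin, had none by symbol. Of the 17 probes, 14 passed the filter on low signal, and they stood for 8 genes among 11802 tested. In the sensitive cultures Srm and Pes1 fell after 16 and 24 h of drug and Bop1, by 1 of its 2 kept probes, fell by 24 h. These calls rested on few arrays. At 24 h Srm and Pes1 were below their 0 h arrays in both resistant cultures as well. For no member was the drug response of sensitive cells shown to differ from that of resistant cells. In the 595sp line Srm, Nop56, Pes1, Nop58 and Npm1 were higher and Nop2 was lower in the resistant than in the sensitive culture.

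Ribosomes are made in the nucleolus, where RNA polymerase I transcribes the ribosomal RNA precursor and assembly factors cleave, modify and fold it. Nucleolin (Ncl) and nucleophosmin (Npm1) are abundant nucleolar proteins. Fibrillarin, Nop56 and Nop58 are core proteins of the box C/D small nucleolar ribonucleoproteins, which guide 2′-O-methylation of rRNA. Pes1, Bop1 and Wdr12 form the PeBoW complex, needed for processing of the large subunit rRNAs, and Nop2 is an rRNA cytosine methyltransferase of the large subunit. Srm is spermidine synthase, a polyamine enzyme, and not a ribosome assembly factor. Several of these genes are known targets of MYC, and plasma cells, the normal counterpart of myeloma cells, secrete antibody in bulk.

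Total RNA was measured on Illumina bead arrays from 2 mouse lines, 595sp and 589bm, described in the labels as multiple myeloma cells of Bcl-XL/Myc double transgenic genotype on a background of FVBN mice crossed with BL/6. Both transgenes were thus present in every culture, resistant and sensitive alike. Each line was grown as a resistant and as a sensitive culture with respect to bortezomib, an inhibitor of the proteasome, and RNA of the 4 cultures was taken untreated (0 h) and at 2, 8, 16 and 24 h of bortezomib at 33 nM, on a single array per time. Untreated cells were not sampled beyond 0 h, so the drug cannot be told apart from time in culture. All 4 cultures are single cultures, and p-values for the drug treat the 2 lines as replicates. Those within a line or a culture reflect the spread between times, pooled over both lines or all 4 cultures, since all arrays were fitted together. The times of a culture are not separate cultures.

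The 589bm resistant 2 h array was close to blank and was left out, which leaves 19 arrays. Its mean raw intensity was 140 and it correlated with the others at a median r of 0.244, against mean intensities of 361 to 735 and median correlations of at least 0.942 on the arrays used. On the 5 arrays of the 595sp resistant culture the characteristics give another sensitivity and time than the title does. The arrays were grouped by title. All 19 arrays were closest to another array of the same culture, which cannot settle the sensitivity or time of these 5 arrays. Of 15 plasma cell and B lineage markers 11 had a probe and 9 passed the filter, among them Xbp1, Irf4, Mzb1, Pou2af1 and Cd79b, while Jchain and Tnfrsf17 did not pass it. The others that passed were dim, with mean log2 signals of 6.47 for Prdm1, 6.65 for Pax5, 6.68 for Ms4a1 and 6.99 for Sdc1. The filter cut at 6.47, so these markers were not clearly detected. As the RNA is of whole cultures, fewer cells with a transcript and less of it per cell cannot be told apart.

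The filter kept the 50% of probes with the higher mean log2 signal. It removed the probe of Wdr12, whose log2 signal lay between 6.05 and 6.70, a second probe of Npm1 (6.20 to 6.65) and a second probe of Nop58 (5.79 to 6.51). With all probes tested, these 3 probes passed in 0 of 18 comparisons each. Such dim probes cannot show whether Wdr12 changed. Srm and Nop2 had 3 kept probes, Ncl and Bop1 had 2, and the others had 1. The brightest kept probe stood for each gene, and other probes are named where they differ. A gene is said to have passed at a Benjamini-Hochberg adjusted p under 0.05 in limma, with adjustment over all 22641 kept probes.

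Promoter windows of 300 bases, 250 before and 50 from the annotated start, were held for 6 of the 10 genes in a RefSeq table of build GRCm38.p6. The E-box CACGTG, a motif bound by MYC with its partner MAX, was searched in them because MYC regulates several genes of this kind. The motif reads alike on both strands. It was found in 2 of the 6 genes, beginning 60 bases before the start of Nop2 and at base 3 of the Pes1 transcript, and it is held by 7.15% of all 32851 windows in the table. The related CACGCG, searched on both strands and held by 9.27% of windows, was found in Pes1 at 247 bases before the start. The windows of Pes1, Nop2 and Nop56 are shown because these genes moved differently below, all on the plus strand and with CACGTG in capitals. They lie at chr11:3963725-3964024, chr6:125131633-125131932 and chr2:130274162-130274461.
Pes1: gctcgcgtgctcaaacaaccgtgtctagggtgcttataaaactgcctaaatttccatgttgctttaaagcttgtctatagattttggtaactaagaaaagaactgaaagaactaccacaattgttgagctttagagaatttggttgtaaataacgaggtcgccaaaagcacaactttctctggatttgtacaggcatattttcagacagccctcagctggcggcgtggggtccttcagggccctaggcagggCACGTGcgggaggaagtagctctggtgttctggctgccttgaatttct
Nop2: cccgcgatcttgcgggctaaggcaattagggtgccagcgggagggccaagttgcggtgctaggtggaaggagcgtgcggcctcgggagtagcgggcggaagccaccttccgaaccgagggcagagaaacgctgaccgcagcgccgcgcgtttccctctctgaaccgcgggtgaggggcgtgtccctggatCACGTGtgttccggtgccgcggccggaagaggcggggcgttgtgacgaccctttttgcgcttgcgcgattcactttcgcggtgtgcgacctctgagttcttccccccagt
Nop56: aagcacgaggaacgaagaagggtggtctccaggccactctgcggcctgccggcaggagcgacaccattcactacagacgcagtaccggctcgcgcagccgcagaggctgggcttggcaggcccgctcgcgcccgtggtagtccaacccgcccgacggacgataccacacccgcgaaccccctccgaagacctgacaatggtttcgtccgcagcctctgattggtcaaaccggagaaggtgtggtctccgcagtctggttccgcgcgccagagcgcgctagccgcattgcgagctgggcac
A match of these letters is a description, and no binding was measured here. Neither motif was found in the windows of Ncl, Nop56, Nop58 and Wdr12.

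Srm, spermidine synthase, set the 595sp sensitive culture apart from the others. In 595sp its log2 signal at 0, 2, 8, 16 and 24 h was 12.48, 12.57, 12.32, 11.61 and 12.20 in the resistant culture, against 11.51, 11.47, 11.01, 10.09 and 9.74 in the sensitive culture. Its 589bm values were 13.07 at 0 h, 13.02 at 8 h, 12.31 at 16 h and 12.68 at 24 h in the resistant culture, against 12.90, 13.21, 12.83, 12.19 and 12.37 over the 5 times in the sensitive culture. The 595sp sensitive culture was the lowest of the 4 at every time, with no overlap with any other culture, and by the representing probe it was lower at each later time. By the same probe the 16 h array was the lowest in the other 3 cultures. The second Srm probe was lowest at 24 h in 589bm resistant (12.36) and sensitive (11.66) cells. The third was lowest at 24 h in 589bm resistant cells (12.25).

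Of the PeBoW genes, Pes1 had its highest array at 0 h in all 4 cultures. Its log2 signal over the 5 times in 595sp was 9.76, 9.24, 9.19, 8.71 and 8.41 in the resistant culture, against 9.33, 9.13, 8.35, 8.03 and 7.54 in the sensitive culture. The 589bm values of Pes1 were 8.43, 8.26, 8.05 and 8.14 at 0, 8, 16 and 24 h in the resistant culture, against 9.26, 8.74, 8.95, 8.58 and 7.99 over the 5 times in the sensitive culture. The 24 h array was the lowest in 3 cultures and the 16 h array in 589bm resistant cells. Bop1 moved less evenly. Its log2 signal in 595sp was 9.58, 9.52, 10.25, 10.06 and 9.48 in the resistant culture, against 9.84, 9.94, 9.59, 9.79 and 8.62 in the sensitive culture. In 589bm it was 8.77, 9.29, 8.42 and 9.17 in the resistant culture, against 10.01, 9.38, 10.06, 8.83 and 9.07 in the sensitive culture. The ranges overlapped within each line, and the 595sp sensitive 24 h array stood well below the other arrays of its culture.

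Of the nucleolar proteins, Ncl was low on the later arrays of the 595sp sensitive culture. Its log2 signal in 595sp was 10.50, 10.15, 10.52, 10.24 and 10.11 in the resistant culture, against 10.53, 10.53, 10.18, 9.64 and 9.36 in the sensitive culture. The 589bm values of Ncl were 10.82, 11.07, 10.81 and 10.87 in the resistant culture, against 10.60, 10.69, 11.01, 10.91 and 10.39 in the sensitive culture. By the representing probe the 16 and 24 h arrays of 595sp sensitive cells were the lowest of all 19. On the second Ncl probe their 24 h array was still the lowest (8.52). Their 16 h array (9.19) there lay above the 24 h arrays of 589bm sensitive (8.87) and 595sp resistant (9.03) cells. Npm1 kept to a narrow span: it lay between 14.18 and 14.80 in the 595sp resistant culture, against 13.86 to 14.23 in the 595sp sensitive culture. In 589bm Npm1 lay between 14.55 and 14.70 in the resistant culture, against 14.01 to 14.67 in the sensitive culture, so the ranges overlapped in both lines.

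Of the box C/D proteins, Nop56 was high in the 595sp resistant culture at every time. Its log2 signal over the 5 times in 595sp was 12.49, 12.12, 12.30, 12.48 and 12.36 in the resistant culture, against 11.03, 10.66, 11.59, 11.52 and 11.27 in the sensitive culture. In 589bm it was 11.67, 11.71, 12.30 and 11.93 in the resistant culture, against 11.62, 11.51, 12.05, 12.59 and 12.09 in the sensitive culture. All 595sp resistant arrays were above all 595sp sensitive arrays, and in both sensitive cultures the 8, 16 and 24 h arrays were above those of 0 and 2 h. Nop58 lay between 12.48 and 12.82 in the 595sp resistant culture, against 12.02 to 12.53 in the 595sp sensitive culture. In 589bm it lay between 12.53 and 12.89 in the resistant culture, against 12.65 to 13.36 in the sensitive culture, with the 589bm sensitive 16 h array the highest of all 19.

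Nop2, the rRNA methyltransferase, was high in the 595sp sensitive culture at every time. Its log2 signal in 595sp was 10.36, 10.37, 10.51, 10.40 and 10.37 in the resistant culture, against 11.83, 11.89, 11.87, 11.77 and 11.64 in the sensitive culture. In 589bm it was 9.59, 9.72, 8.96 and 9.58 in the resistant culture, against 10.35, 10.26, 10.42, 9.66 and 10.09 in the sensitive culture. The 595sp ranges were far apart, while in 589bm they overlapped only through the 16 h array of the sensitive culture. By the representing probe the 16 h array was the lowest in both 589bm cultures, with log2 changes from 0 h of -0.63 in resistant and -0.69 in sensitive cells. The third probe was lowest at 24 h in both (8.30 in resistant and 8.08 in sensitive cells). In 589bm sensitive cells the second probe was lowest at 0 h (9.21).

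**Figure D1:**
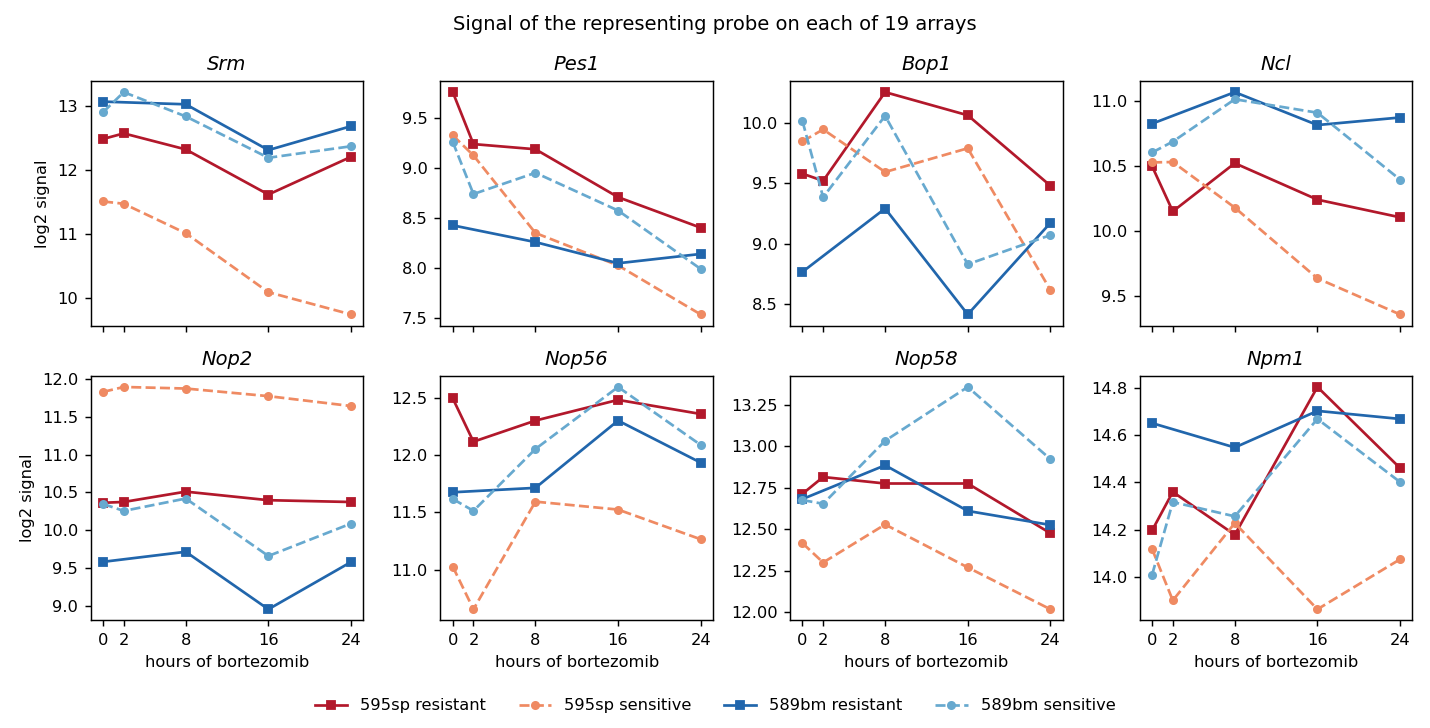
Log2 signal (vertical axis, a separate scale for each gene) of the representing probe of 8 genes against hours of bortezomib, with 1 point per array and lines joining the arrays of a culture. Srm and Ncl are lowest in the 595sp sensitive culture at 16 and 24 h, Nop2 is highest in that culture at all 5 times, and 589bm resistant cells have no 2 h point.

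The first comparison asks how the drug changed these genes in sensitive cells. At 16 h of bortezomib against 0 h, 2 of the 8 genes passed as lower and 1 as higher, where 4.74% of all genes tested passed as lower and 5.82% as higher. Srm fell 2.09-fold (log2 change -1.07, SE 0.21, adjusted p = 0.00453 by limma) and Pes1 fell 1.99-fold (-0.99, SE 0.26, adjusted p = 0.0223), while Nop56 rose 1.67-fold (0.74, SE 0.18, adjusted p = 0.0173). At 24 h 3 genes passed as lower and 0 as higher, where 6.24% of genes passed as lower and 8.24% as higher. Pes1 fell 2.88-fold (-1.53, SE 0.26, adjusted p = 0.000962), Srm 2.22-fold (-1.15, SE 0.21, adjusted p = 0.00199) and Bop1 2.12-fold (-1.08, SE 0.31, adjusted p = 0.0315). Each of these changes had the same sign in both lines.

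The median log2 change of the 8 genes was -0.33 at 16 h and -0.45 at 24 h, against -0.01 and 0.02 over all genes. Members that did not pass at 24 h were Ncl at -0.69 (adjusted p = 0.0745), Nop2 at -0.22, Nop58 at -0.08, Npm1 at 0.17 and Nop56 at 0.35. No member passed at 2 h or at 8 h. At 2 h no gene at all passed, with 594 probes at an unadjusted p under 0.05, and at 8 h 1.03% of genes passed as lower and 1.53% as higher. The 8 genes had median log2 changes of -0.04 at 2 h and 0.04 at 8 h.

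Other probes of these genes bore on the calls. All 3 Srm probes passed at both times, with log2 changes between -1.07 and -0.86 at 16 h and between -1.47 and -1.10 at 24 h. For Bop1 the second, dimmer probe gave -0.17 at 24 h (adjusted p = 0.566), so its call rests on 1 of 2 probes. The second Ncl probe passed at 24 h (-1.34, adjusted p = 0.027), while the representing probe did not. The third Nop2 probe passed at 24 h (-0.83, adjusted p = 0.0106), against -0.22 and -0.08 for the others.

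These calls rest on few arrays. Without the term for culture none of the 3 genes passed at 16 h (adjusted p = 0.516 for Pes1, 0.68 for Nop56 and 0.808 for Srm) or at 24 h (0.161 for Pes1, 0.455 for Bop1 and 0.733 for Srm). Pes1 at 24 h passed in all 19 fits that left out 1 array. Srm missed at 24 h without the 595sp sensitive 0 h array (-0.81, adjusted p = 0.0643) or 24 h array (-0.72, adjusted p = 0.0803), and at 16 h without the 595sp sensitive 0 h array (-0.73, adjusted p = 0.114). Pes1 at 16 h missed without the 0 h array of 595sp (-0.80) or 589bm (-1.18) sensitive cells or without their 16 h arrays (-0.79 for 595sp and -1.19 for 589bm). Nop56 at 16 h missed without the 589bm sensitive 0 h array (0.63), the 589bm sensitive 16 h array (0.54) or the 595sp sensitive 0 h array (0.84). Bop1 at 24 h missed without the 589bm sensitive 0 h array (-0.93) or the 595sp sensitive 0 h (-1.24) or 24 h (-0.75) array, while at 16 h it passed without the 595sp sensitive 16 h array (-1.16). Ncl at 24 h passed without the 589bm sensitive 0 h array (-1.06) and without the 16 h array of 589bm or of 595sp sensitive cells (-0.69 each).

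The scaling between arrays moved the values as well. Mean raw intensity at 0, 2, 8, 16 and 24 h was 638, 598, 474, 476 and 385 in 595sp sensitive cells and 544, 523, 565, 377 and 471 in 589bm sensitive cells. With median scaling in place of quantile normalisation, the median of all probes was -0.15 at 16 h and -0.10 at 24 h. Relative to that median, Srm was at -1.39 and -1.47, and Pes1 at -1.21 and -1.67, at 16 and 24 h, and Bop1 was at -1.25 at 24 h, and all of these passed. Nop56 at 16 h did not pass under median scaling (log2 change 0.28, adjusted p = 0.637; 0.44 relative to the median). The part of the intensity change in these results was not tested.

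Some markers of other cells also moved with the drug in sensitive cells. Of the 3 T cell markers tested 1 passed as lower at each of 8, 16 and 24 h, with medians of -0.46, -0.52 and -0.50. Of the 3 erythroid markers 1 passed as lower at 16 and at 24 h (medians -0.65 and -0.58), and of the 4 macrophage markers 1 at each of these times (medians -0.01 and -0.0029). Of the 9 plasma cell and B lineage markers 1 passed as lower at 8, 16 and 24 h (median -0.18 at 24 h), and no stromal marker passed. None of these markers passed as higher at 8, 16 or 24 h against 0 h, and their part in the changes was not tested.

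**Figure D2:**
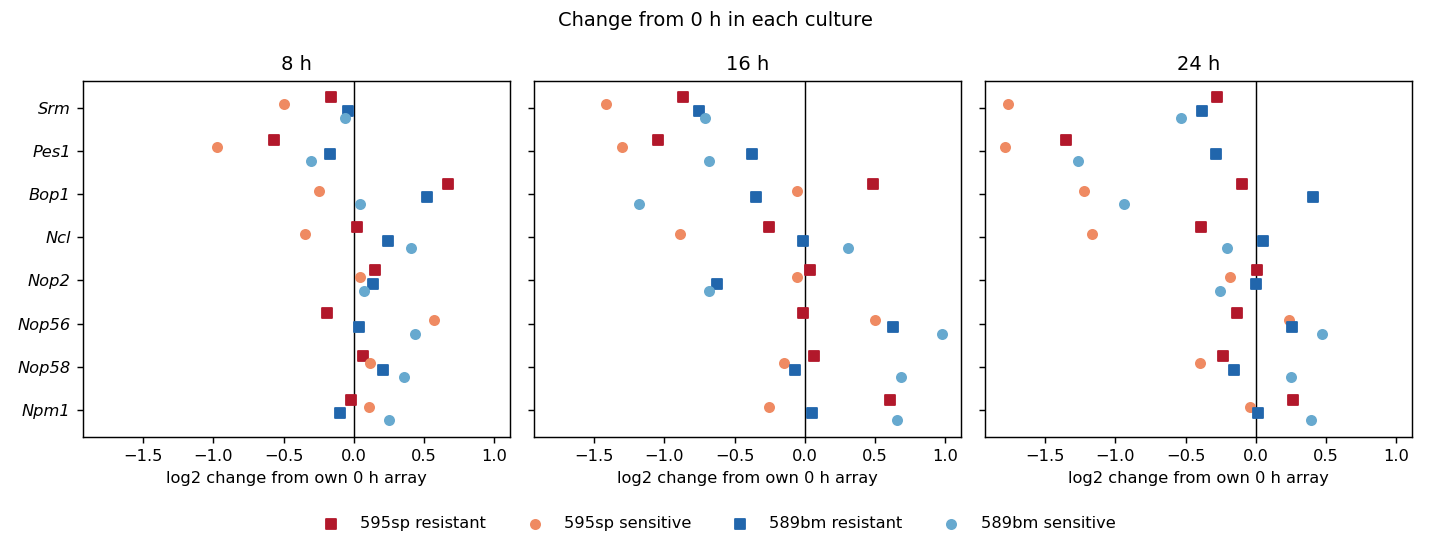
Log2 change of the representing probe from the 0 h array of the same culture (horizontal axis) for 8 genes at 8, 16 and 24 h, with 1 point per culture. At 24 h Srm and Pes1 are below 0 in all 4 cultures, furthest in 595sp sensitive cells at -1.77 and -1.79.

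In resistant cells the same contrasts gave no call for any member. At 16 h Srm stood at -0.81 (SE 0.21, adjusted p = 0.0766 by limma) and Pes1 at -0.71 (adjusted p = 0.209), and at 24 h Pes1 stood at -0.82 (adjusted p = 0.154) and Srm at -0.33 (adjusted p = 0.582). Few genes of any kind passed in resistant cells: 0.695% as lower and 0.635% as higher at 16 h, 0.551% and 0.864% at 24 h, 0.0763% and 0.127% at 8 h, and none at 2 h, where 500 probes had an unadjusted p under 0.05. At 8, 16 and 24 h 2079, 3032 and 2857 probes had an unadjusted p under 0.05. The median of the 8 genes was -0.10, 0.04, -0.07 and -0.08 at 2, 8, 16 and 24 h. The 2 h results here rest on 595sp alone, as the 589bm resistant 2 h array was left out. Srm at 16 h passed without the 595sp or the 589bm sensitive 24 h array (-0.81 in both fits, adjusted p = 0.0354 and 0.0357), so its place beyond the threshold is set by arrays outside the contrast.

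The drug response of resistant cells was then set against that of sensitive cells, as a difference of the mean changes at 8, 16 and 24 h. No member passed, where 0.11% of genes passed as lower and 0% as higher, with 2504 probes at an unadjusted p under 0.05. The differences for Bop1, Pes1 and Srm were 0.87 (SE 0.36), 0.42 (SE 0.30) and 0.42 (SE 0.25), with adjusted p = 0.399, 0.631 and 0.556. Nop56 had a difference of -0.43 (SE 0.21, adjusted p = 0.459). The passing of Srm, Pes1 and Bop1 in sensitive and not in resistant cells is therefore not shown to be a difference between them.

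Each culture was also examined alone, with the 8, 16 and 24 h arrays against the 0 and 2 h arrays. In 589bm resistant cells, whose 2 h array was left out, the 0 h array alone stood on the earlier side. In 595sp sensitive cells 3 of the 8 genes passed as lower, where 4.99% of genes passed as lower and 5.21% as higher: Pes1 at -1.25 (SE 0.27, adjusted p = 0.00671), Srm at -1.21 (SE 0.28, adjusted p = 0.0104) and Ncl at -0.80 (SE 0.21, adjusted p = 0.0229). In 589bm sensitive cells Nop56 alone passed, as higher (0.68, SE 0.19, adjusted p = 0.0304), where 5.26% of genes passed as lower and 5.09% as higher, and Srm and Pes1 stood at -0.59 and -0.49. Nop56 stood at 0.62 in 595sp sensitive cells, with an adjusted p of 0.0511 by limma. Of the 4 macrophage markers tested 1 passed as lower and 1 as higher in 595sp sensitive cells. Of the 9 plasma cell and B lineage markers 1 passed as lower and 1 as higher in 589bm sensitive cells. The part of these markers in the changes was not tested. No member passed in the resistant cultures, where 1.23% of genes passed as lower and 0.686% as higher in 595sp, with 3031 probes at an unadjusted p under 0.05, and 0.102% and 0.288% in 589bm, with 2175 such probes.

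The line difference of these changes was passed by no member in sensitive cells, where 0.0678% of genes passed as lower and 0.0763% as higher and 1656 probes had an unadjusted p under 0.05. It was -0.93 for Ncl, -0.76 for Pes1 and -0.61 for Srm (595sp minus 589bm, adjusted p = 0.387, 0.703 and 0.802). In 595sp sensitive cells Pes1, Srm and Ncl each missed without the 0 h array (-1.15, -1.19 and -0.80) or the 2 h array (-1.35, -1.23 and -0.80). Srm and Ncl also missed without the 24 h array (-0.94 and -0.62), and Ncl without the 16 h array (-0.76). With the mean of its kept probes Ncl missed as well (-0.88, adjusted p = 0.061 by limma). Nop56 missed in 589bm sensitive cells without their 0, 2 or 16 h array (0.73, 0.63 and 0.51) and under median scaling (0.40, adjusted p = 0.449). In 595sp sensitive cells it passed (0.62) without the 8 or 16 h array of 589bm resistant cells or of 589bm sensitive cells. Under median scaling the median probe of the 595sp sensitive contrast was at -0.13.

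The second question of the design is how resistant cells differ from sensitive cells of the same line. In 595sp 5 of the 8 genes passed as higher and 1 as lower, where 10.8% of genes passed as higher and 11.2% as lower. Srm averaged 12.24 ± 0.38 in resistant cells and 10.76 ± 0.81 in sensitive cells (log2 signal, SD over times, n = 5 arrays each), a log2 difference of 1.48 or 2.78-fold (SE 0.16, adjusted p = 2.82e-06 by limma). Nop56 averaged 12.35 ± 0.15 in resistant and 11.21 ± 0.38 in sensitive cells, a difference of 1.14 (SE 0.12, adjusted p = 2.07e-06). Nop2 averaged 10.40 ± 0.061 in resistant and 11.80 ± 0.10 in sensitive cells, a difference of -1.39 or 2.63-fold lower (SE 0.10, adjusted p = 2.17e-08). These 3 genes differed in the same direction at all 5 times.

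Smaller differences were passed by Pes1 (0.59, SE 0.15, adjusted p = 0.00927), Nop58 (0.41, SE 0.11, adjusted p = 0.012) and Npm1 (0.36, SE 0.12, adjusted p = 0.0465). Pes1 and Nop58 were higher in resistant cells at all 5 times and Npm1 at all but 8 h. Ncl and Bop1 stood at 0.26 and 0.22 and did not pass. The median of the 8 genes was 0.38, against 0.01 over all genes. The probes of a gene gave the same direction here: the Srm probes differed by 1.48, 1.58 and 1.61 and the Nop2 probes by -1.39, -1.24 and -1.01, and all 6 passed.

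Srm, Nop56, Nop2 and Pes1 passed in all 19 fits that left out 1 array. Pes1 missed without the terms for time (adjusted p = 0.237). Npm1 passed in 9 of the 19 fits and also missed without the terms for time (adjusted p = 0.0547). It missed without the 595sp resistant or sensitive array of 2 h (0.34 and 0.35), 16 h (0.23 and 0.22) or 24 h (0.36 and 0.35), and without the 589bm resistant or sensitive array of 8 h (0.36 each) or 24 h (0.36 each). Nop58 missed without the 595sp resistant 16 h array (0.38, adjusted p = 0.0514) or the sensitive 16 h array (0.38, adjusted p = 0.0508).

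Markers of other cells were not level between these cultures. Linear signal was summed over all markers of a list with a probe, those below the filter included. Of 8 T cell markers 6 had a probe and 3 of them, Cd3e, Cd3g and Cd8b1, passed the filter. The sum of the 6 ranged over 2332 to 3704 in 595sp resistant cells, against 3592 to 6273 in 595sp sensitive cells. Of 8 macrophage markers 7 had a probe and 4 of them, Csf1r, Mpeg1, Cd14 and Fcgr1, passed the filter. The sum of the 7 ranged over 656 to 828 in resistant cells and 1009 to 2038 in sensitive cells. As single genes 2 of the 3 tested T cell markers and all 4 tested macrophage markers passed as lower in resistant cells. The 11 plasma cell and B lineage markers with a probe summed to 27669 to 36191 in resistant and 30287 to 35646 in sensitive cells. Erythroid markers (4 of 5 with a probe, 3 past the filter) summed to 318 to 410 in resistant and 380 to 496 in sensitive cells. Stromal markers (6 of 6 with a probe, 2 past the filter) summed to 493 to 534 and 492 to 551, so both lists overlapped. The part of other cells in the differences above was not tested.

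In 589bm the picture was different: 2 of the 8 genes passed as lower and 0 as higher in resistant cells, where 10.9% of genes passed as lower and 13.2% as higher. Nop2 averaged 9.46 ± 0.34 in resistant cells (n = 4 arrays) and 10.16 ± 0.30 in sensitive cells (n = 5 arrays), and its fitted difference was -0.67 (SE 0.11, adjusted p = 0.00033 by limma). Pes1 averaged 8.22 ± 0.16 in resistant and 8.71 ± 0.47 in sensitive cells, with a difference of -0.48 (SE 0.16, adjusted p = 0.0491). Bop1 at -0.58 (adjusted p = 0.0624) and Nop58 at -0.32 (adjusted p = 0.0635) did not pass, nor did Nop56 at -0.18, Ncl at 0.16, Srm at 0.20 and Npm1 at 0.31. The median of the 8 genes was -0.25, against 0.02 over all genes.

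Probes disagreed in 589bm. The other 2 Nop2 probes gave 0.01 and -0.09 and did not pass, so the lower Nop2 signal there rests on 1 of 3 probes, and the mean of the 3 missed at -0.25 (adjusted p = 0.0711). The third Srm probe passed as higher (0.48, adjusted p = 0.0405), against 0.47 (adjusted p = 0.121) for the second and 0.20 for the representing probe. Pes1 passed in only 5 of the 19 fits with 1 array left out, and missed without the terms for time (adjusted p = 0.312). It missed without the 589bm resistant or sensitive array of 0, 8 or 16 h, at -0.46 to -0.36, and without the 595sp resistant or sensitive array of 0, 8, 16 or 24 h, at -0.48 to -0.47. Bop1 passed without either 589bm 24 h array (-0.81 each) or either 595sp 2 h array (-0.58 each), and Nop58 without either 589bm 0 h array (-0.43 each). Under median scaling Bop1 (-0.81) and Nop58 (-0.60) passed too. These Bop1 values are of its representing probe. The second, dimmer Bop1 probe differed by -0.26 at 0 h, -0.16 at 8 h, -0.04 at 16 h and 0.19 at 24 h.

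Cell markers differed between the 589bm cultures as well. Sums were again over all markers of a list with a probe. The 11 plasma cell and B lineage markers summed to 42445 to 43370 in resistant cells, against 29119 to 37964 in sensitive cells, with no overlap. Of the 9 tested 2 passed as higher. The 6 T cell markers summed to 2728 to 4419 in resistant and 2330 to 4915 in sensitive cells. Of the 3 tested 1 passed each way. Macrophage markers (694 to 736 in resistant and 636 to 1073 in sensitive cells), erythroid markers (341 to 419 and 333 to 855) and stromal markers (501 to 571 and 457 to 530) overlapped too, and of these 1 erythroid marker passed, as higher. The part of these markers in the 589bm differences was not tested.

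**Figure D3:**
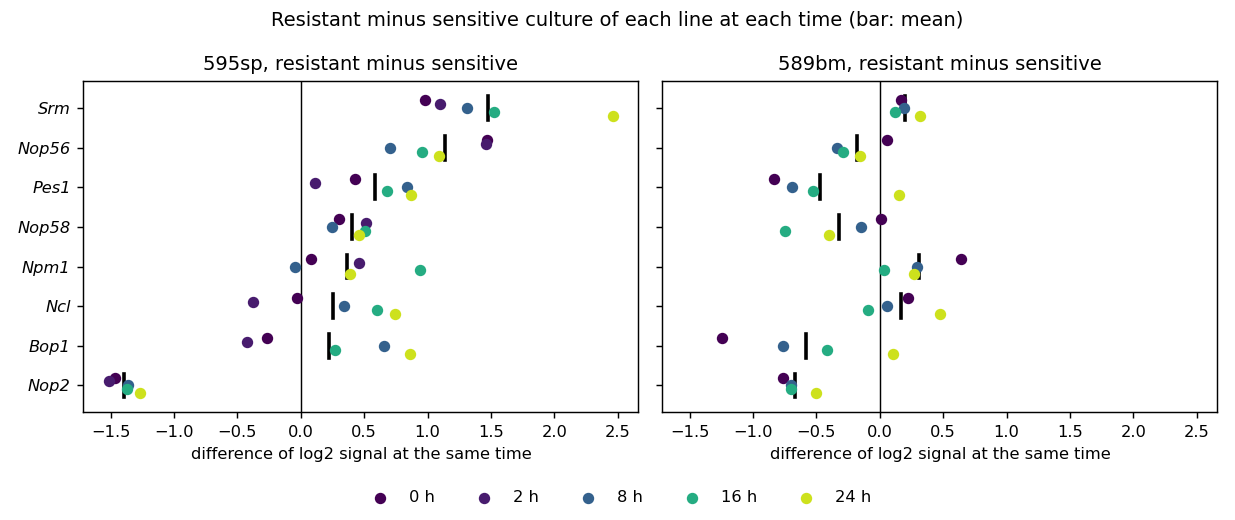
Difference of log2 signal, resistant minus sensitive culture at the same time (horizontal axis), for 8 genes in 595sp and in 589bm, with 1 point per time and a bar at the mean over times. In 595sp Srm and Nop56 lie above 0 and Nop2 below 0 at all times, and in 589bm Nop2 lies below 0 at all 4 times measured in both cultures.

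The difference between resistant and sensitive cells was itself tested for a difference between the lines, as 595sp minus 589bm. It passed as higher for 4 of the 8 genes and as lower for 1, where 10.3% of genes passed as higher and 12.2% as lower. Nop56 had a line difference of 1.32 (SE 0.18, adjusted p = 4.49e-05 by limma), Srm 1.28 (SE 0.23, adjusted p = 0.000839), Pes1 1.06 (SE 0.22, adjusted p = 0.00244) and Nop58 0.73 (SE 0.16, adjusted p = 0.00358). Nop2 had -0.73 (SE 0.14, adjusted p = 0.00172), and its other probes gave -1.25 and -0.92, both of which passed. Bop1 at 0.80 (adjusted p = 0.0603), Ncl at 0.09 and Npm1 at 0.05 did not pass. The second, dimmer Bop1 probe averaged 6.53 in resistant and 6.51 in sensitive cells of 595sp, against 6.58 and 6.64 in 589bm. The median of the 8 genes was 0.76, against -0.01 over all genes.

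All 5 calls passed in each of the 19 fits that left out 1 array. Bop1 passed in 6 of those fits, without the 24 h array of either 589bm culture (1.03 each) or without the 0 h or 2 h array of either 595sp culture (0.92 and 0.96). Under median scaling the median probe of this contrast was at 0.17. Relative to that median Nop56 was at 1.56, Srm at 1.60, Pes1 at 1.24, Nop58 at 1.03 and Bop1 at 1.05, and all of these passed, while Nop2 at -0.41 did not (log2 difference -0.25, adjusted p = 0.601). Pes1 missed without the terms for time (1.07, adjusted p = 0.100).

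The other genes of ribosome assembly were read from 4 lists: RNA polymerase I and its factors, small nucleolar ribonucleoprotein (snoRNP) proteins and chaperones, the small subunit processome and large subunit assembly factors. Genes of the snoRNP and chaperone list are called snoRNP genes below, though not all of them, Tcof1 among the exceptions, code for snoRNP proteins. In sensitive cells at 24 h, where 6.24% of all genes passed as lower and 8.24% as higher, 7 of 48 large subunit genes passed as lower and 2 as higher, and the median was -0.13. The largest falls were those of Rpf2, a factor of 5S particle docking (-1.61, adjusted p = 0.0135 by limma), Lyar (-1.40, adjusted p = 0.00517) and Pa2g4 (-1.19, adjusted p = 0.0205), and the rises were those of the GTPases Gnl2 (0.78, but -0.014 for the mean of its probes) and Lsg1 (0.75). Of 12 snoRNP genes 4 passed as lower and 0 as higher, with a median of -0.34, among them Nop10 (-1.21), a core protein of box H/ACA particles, Tcof1 (-1.17) and Snu13 (-1.01), which binds box C/D RNAs. Of 41 small subunit genes 1 passed as lower, Imp3 (-0.69), and 1 as higher, Ngdn (0.97), a smaller share than over all genes in each direction. Imp3 also passed as lower in resistant cells at 24 h (-0.77, adjusted p = 0.033 by limma), where 0.551% of all genes did so. Of 10 RNA polymerase I genes the subunits Polr1b and Polr1c passed as lower (-0.88 each) and Taf1a, a subunit of the promoter factor SL1, as higher (1.24).

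In 595sp resistant against sensitive cells, with 10.8% of all genes passing as higher and 11.2% as lower, the same lists had more members passing as higher than as lower. Of 48 large subunit genes 18 passed as higher and 1 as lower (median 0.27), of 41 small subunit genes 12 and 1 (median 0.28), of 12 snoRNP genes 5 and 0 (median 0.31), and of 10 RNA polymerase I genes 4 and 1 (median 0.31). The largest were Noc2l (1.06), Ebna1bp2 (1.02) and Rrp1b (0.98) of the large subunit, Polr1b (0.86), the small subunit factor Utp14a (0.80) and Nop10 (0.73). The exceptions were Emg1 (-1.59), an rRNA methyltransferase, the helicase Ddx54 (-0.69) and Polr1d (-0.35). In 589bm, with 10.9% of all genes passing as lower and 13.2% as higher, 6 large subunit genes passed as lower and 2 as higher in resistant cells (median -0.09), 7 small subunit genes and 2 (median -0.06), 2 snoRNP genes and 4 (median 0.03) and 3 RNA polymerase I genes and 0 (median -0.26). Ebna1bp2 and Polr1b, higher in resistant cells of 595sp, were lower in those of 589bm (-0.72, adjusted p = 0.000272, and -0.71, adjusted p = 0.00441).

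Of 12 RNA exosome genes, whose complex trims rRNA precursors, 2 passed as lower and 1 as higher in sensitive cells at 24 h, with Exosc8 at -1.14, Exosc5 at -0.87 and Exosc10 at 0.67, where 6.24% of all genes passed as lower and 8.24% as higher, so that 1 higher gene of 12 is near the share over all genes. In resistant against sensitive cells 5 passed as higher and 0 as lower in 595sp, led by Exosc10 (0.97) and Exosc4 (0.86), where 10.8% and 11.2% of all genes did so, and 2 each way in 589bm, where 13.2% and 10.9% did so and the exosome helicase Mtrex was at -1.38. Polyamine enzymes beside Srm did not move as a block. Of 7 tested, Mtap, which recycles a by-product of spermidine synthesis, passed as lower in sensitive cells at 24 h (-0.86, adjusted p = 0.0113), and the spermine oxidase Smox (1.17, adjusted p = 0.000658) and the antizyme Oaz2 (0.84, adjusted p = 0.0146) as higher. Mtap also passed as lower in resistant cells at 16 h (-0.88, adjusted p = 0.0477 by limma). It did so too in the 595sp resistant culture at later against earlier times (-0.88, adjusted p = 0.0256). In 595sp resistant against sensitive cells gave Mtap at 0.92 and Odc1 at 0.42 as higher and Oaz2 at -0.78 and Smox at -0.67 as lower. In 589bm Smox passed as lower (-0.72) and no polyamine gene as higher.

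Myc itself is a transgene in these lines, and whether its probe reads the transgene was not tested. Its log2 signal over the 5 times in 595sp was 10.42, 10.49, 10.24, 9.83 and 10.20 in resistant cells, against 8.83, 8.76, 8.69, 8.15 and 8.44 in sensitive cells, with no overlap. The difference was 1.66 (SE 0.10, adjusted p = 4.05e-09 by limma). In 589bm it was 0.21 (adjusted p = 0.212), and the line difference was 1.46 (adjusted p = 3.14e-06). In sensitive cells Myc stood at -0.59 at 16 h (adjusted p = 0.0508) and -0.50 at 24 h (adjusted p = 0.0841), and Odc1, the first enzyme of polyamine synthesis, at -0.69 (adjusted p = 0.0601) and -0.57 (adjusted p = 0.103). With the 8, 16 and 24 h arrays of a single culture against its 0 and 2 h arrays, Myc passed as lower in 589bm sensitive cells (-0.61, adjusted p = 0.0337) and stood at -0.37 in 595sp sensitive cells (adjusted p = 0.246). Odc1 passed as lower in 595sp sensitive cells (-0.79, adjusted p = 0.00879) and stood at -0.17 in 589bm sensitive cells (adjusted p = 0.659). Neither passed in a resistant culture, and the line difference in sensitive cells did not pass for Myc (0.24, adjusted p = 0.897) or Odc1 (-0.62, adjusted p = 0.581). Of the 9 MYC network genes tested, 0 passed in sensitive cells at 24 h, 1 as higher in 595sp resistant against sensitive cells, Myc, and 1 each way in 589bm, Mxd4 (-1.52) and Max (0.46). Over all genes the shares were 6.24% lower and 8.24% higher at 24 h, 11.2% lower and 10.8% higher in 595sp, and 10.9% lower and 13.2% higher in 589bm, against which the counts of the MYC network and polyamine lists are to be read.

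**Figure D4:**
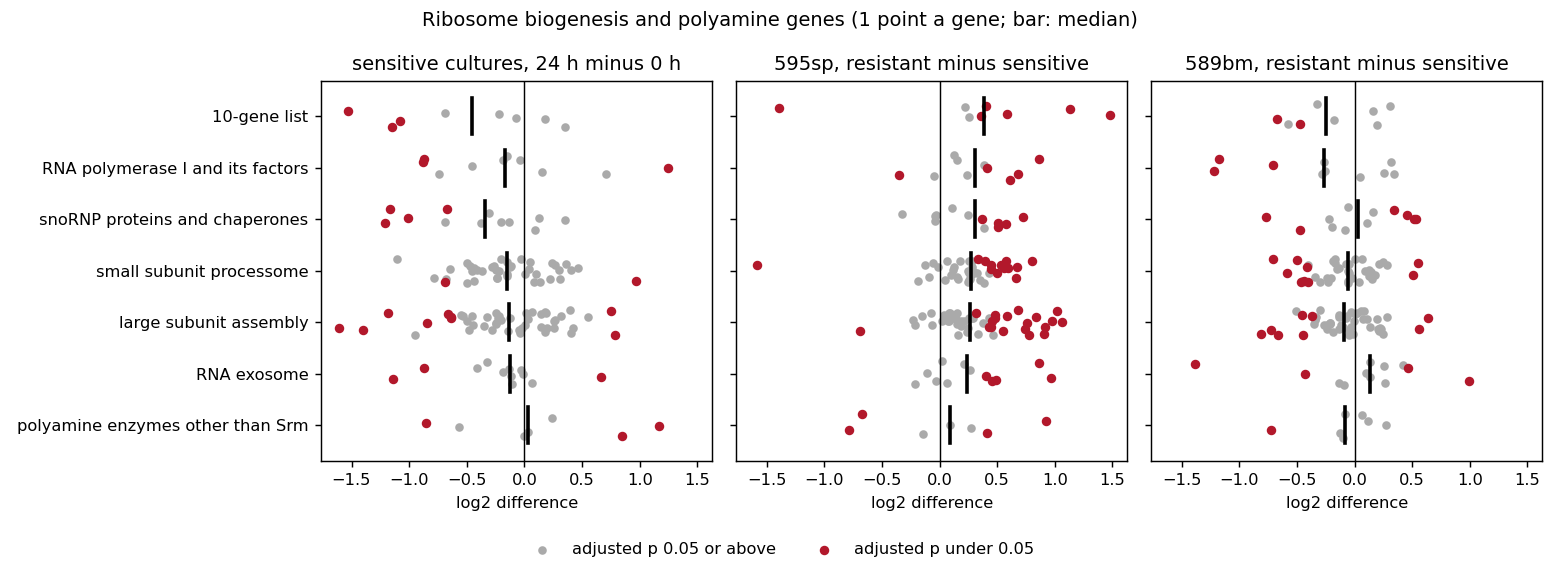
Log2 difference of each tested gene (horizontal axis, 1 point per gene, black bar at the median of the list, red at an adjusted p under 0.05) for 7 lists in sensitive cells at 24 h against 0 h, in 595sp resistant against sensitive cells and in 589bm resistant against sensitive cells. In 595sp the medians of all 7 lists lie above 0, from 0.09 for polyamine enzymes to 0.38 for the 10-gene list.

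Correlations over the 19 arrays were taken after each culture was centred on its own mean, so that they describe change over time. They are given as descriptions, since the arrays share cultures, times and array intensity. Among representing probes the highest values joined Pes1 with Srm (r = 0.80), Ncl with Pes1 (0.79), Bop1 with Nop2 (0.76) and Ncl with Srm (0.72). Nop56 ran the other way, with r = -0.67 with Srm, -0.65 with Nop2 and -0.46 with Pes1, against 0.50 with Npm1 and 0.43 with Nop58. Probes of a single gene varied in how alike they were. The 3 Srm probes had r of 0.88 to 0.97 with each other, the 2 Bop1 probes -0.16, and the 3 Nop2 probes between 0.038 and 0.40, while the second Ncl probe was closer to Bop1 (0.89) than to the other Ncl probe (0.68).

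The genes outside the list whose centred profile was most like the mean of the 8 genes were Ggct, a gamma-glutamylcyclotransferase (r = 0.93 over 19 arrays), 2810004N23Rik (0.91), Nifk, a nucleolar partner of the proliferation antigen Ki-67 (0.88), Prps1, a phosphoribosyl pyrophosphate synthetase (0.88), Timm8a1, of mitochondrial import (0.88), and Smim26 (0.87).

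**Figure D5:**
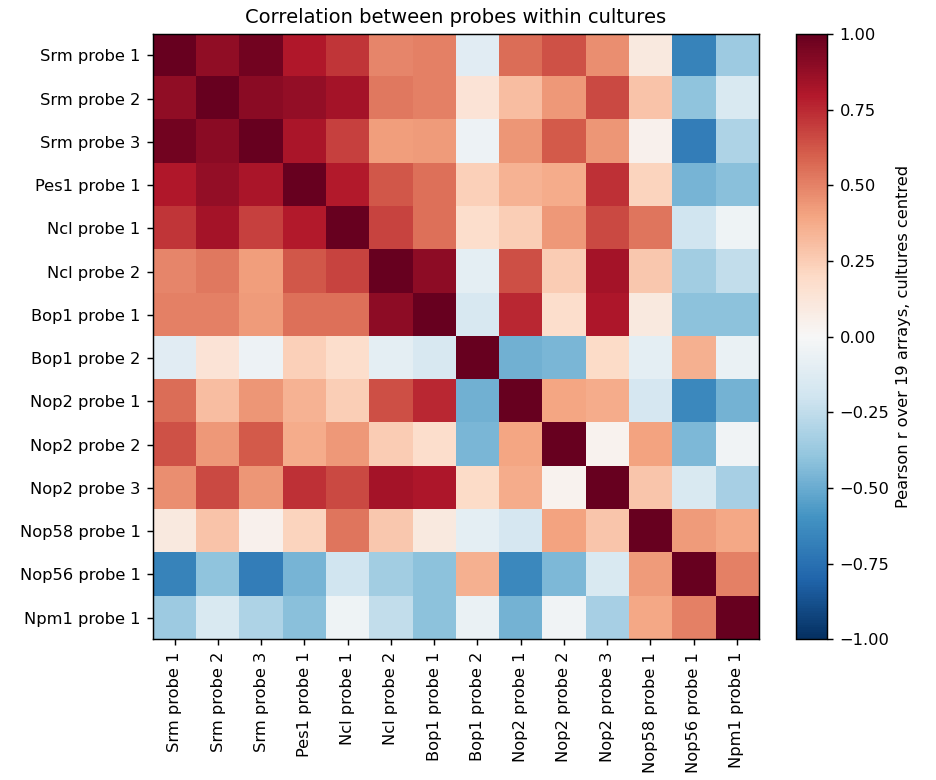
Pearson correlation over 19 arrays between the 14 kept probes after centring each culture, with red for positive and blue for negative values. The Srm, Pes1 and Ncl probes form a red block, and the Nop56 and Npm1 rows are mostly blue against it.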

How the data were processed

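The deposited non-normalized table holds intensity (AVG_Signal) of 45281 probes on 20 arrays, per the file headers, with no detection p-values used here. The deposited series matrix holds quantile-normalized intensity of the same arrays, and each column had a rank correlation of 1 with its raw column. The sources used here do not give the array software or its background handling.

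Intensities were corrected by normexp (offset 50), taken to log2 and quantile-normalized over 19 arrays with limma 3.58.1 in R 4.3.3. The brighter 50% of probes, 22641, were kept. Names came from the platform annotation (34885 probes with 1 symbol, 18 with several and 10378 with none), updated by Entrez number for 34807. Arrays were grouped by title. The number of arrays limits the precision.

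The limma fits (lmFit, eBayes with an intensity trend, Benjamini-Hochberg adjustment) covered responses to the drug (culture as a block, sensitivity by time, 7 residual degrees of freedom), resistance within each line (line by time as terms, 7) and later against earlier times within each culture (11). The pairing comes from the cell line, and each of 19 arrays was nearest to an array of its own culture. Steps were tested on simulated data.

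The members and lists were chosen with earlier results of these data known. All members were named in every comparison. From each other list up to 3 genes with the largest rise and 3 with the largest fall among those passing were eligible for naming, and Myc and Odc1 always. Likeness names the 6 genes with the highest correlation. Alternatives were median scaling, the deposited normalized values, all probes, the mean of a gene's probes, all 20 arrays, omission of the 595sp resistant arrays, no block, no intensity trend and omission of each array.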

Additional observations from a re-analysis of the deposited data

Results flagged for a closer look

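For 5 genes the difference between resistant and sensitive cells was not the same in the lines, by a test of the difference itself (595sp minus 589bm, log2, adjusted p by limma over all kept probes). It was 1.32 for Nop56 (SE 0.18, adjusted p = 4.49e-05), 1.28 for Srm (SE 0.23, adjusted p = 0.000839), 1.06 for Pes1 (SE 0.22, adjusted p = 0.00244) and 0.73 for Nop58 (SE 0.16, adjusted p = 0.00358), each higher in 595sp. It was -0.73 for Nop2 (SE 0.14, adjusted p = 0.00172), which was lower in resistant cells of 595sp by all 3 probes and in those of 589bm by 1 of 3 probes. Under median scaling the Nop2 value was -0.25 (adjusted p = 0.601). Each line had 1 resistant and 1 sensitive culture, so a difference between lines cannot be told apart from a difference between single cultures.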

How the results depend on the processing

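Of the counts of genes passing, these changed by over 1.5 times. Under median scaling the counts were 0 in place of 1 for rises in sensitive cells at 16 h, for the lower line difference and for later rises in 589bm sensitive cells, and 4 in place of 2 for lower genes in 589bm resistant cells. The last was 1 with all probes tested, with the mean of a gene's probes and with no replicate block, and later rises in 595sp sensitive cells were 1 in place of 0 with the mean of probes. With the near-blank array in (all 20 arrays) every count fell to 0, which includes 5 higher and 1 lower in 595sp and 4 higher and 1 lower for the line difference. Without the 595sp resistant arrays later rises in 589bm sensitive cells were 0 in place of 1, and Bop1 at 24 h (-1.07, adjusted p = 0.0505) and Pes1 in 589bm (-0.47, adjusted p = 0.0676) missed, while Srm and Pes1 in sensitive cells passed. With no replicate block the counts in sensitive cells were 0 in place of 2 lower and 1 higher at 16 h and 0 in place of 3 lower at 24 h, and 595sp had 3 higher in place of 5, and no other count moved so far. With the deposited normalized values no count moved so far. Without the intensity trend Npm1 in 595sp missed (adjusted p = 0.0722). The causes of these changes were not tested.

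Leaving out 1 array at a time gave 0 to 2 lower and 0 to 1 higher in sensitive cells at 16 h, 1 to 4 lower at 24 h, 0 to 1 lower in resistant cells at 16 h, 1 to 3 lower in 589bm, 3 to 5 higher in 595sp, 4 to 5 for the higher line difference, 0 to 1 later rises in each sensitive culture and 0 to 3 later falls in 595sp sensitive cells. No member call changed sign under any alternative run. Among list genes, signs changed for Nsa2 in the line difference under median scaling (0.077) and Gnl2 at 24 h with the mean of probes (-0.014). With all 20 arrays they changed in 589bm for Nop10 (-0.94), Ruvbl1 (-0.69), Pih1d1 (-0.021), Imp3 (-0.65), Gtpbp4 (-0.40) and Exosc7 (-0.79), and in the line difference for Ddx54 (0.35), Mphosph6 (0.16) and Exosc5 (0.42). Median scaling also moved the balance of all probes that passed: 159 higher and 1136 lower in place of 1022 and 936 in sensitive cells at 16 h, 304 and 1301 in place of 1442 and 1288 at 24 h, 2509 and 1178 in place of 2137 and 2011 in 595sp, 612 and 2537 in place of 2420 and 2407 in 589bm, and 3576 and 906 in place of 2205 and 2158 for the line difference.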
